A study of Mus musculus with 16 samples.

Results

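The 37 genes described here encode the complement and coagulation factors that the liver secretes into plasma, together with their inhibitors. They were the rows of the gene count table that carry the listed gene symbols, 18 genes of the complement system and 19 of coagulation, kinin formation and fibrinolysis, of 52143 genes in all. Every one of the 37 had a row and passed the filter on low counts, and the lowest count of any of them in any library was 129.

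RNA was sequenced from whole liver of male C57BL6/J mice in 16 libraries, 4 in each of 4 groups. The mice were 6 weeks old at the start and then ate chow or a high-fat diet (HFD) with 60% of energy from fat for 12 weeks. The groups Chow and HFD were injected with saline every 2 weeks, and the groups Chow/FGFR4 KD and HFD/FGFR4 KD with 3 mg/kg of a small interfering RNA against *Fgfr4*, the gene of fibroblast growth factor receptor 4. The siRNA carried N-acetylgalactosamine, which the asialoglycoprotein receptor of hepatocytes takes up, so the knockdown (KD) was aimed at hepatocytes while the sequenced RNA came from all liver cells. The KD mice were set against saline and not against a control siRNA, so *Fgfr4* loss and siRNA injection cannot be told apart.

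Complement is a cascade of plasma proteases and binding proteins that tags particles and kills cells. It starts from antibody-bound C1, from mannose-binding lectins or from C3 itself, passes through the convertases that cleave C3 and C5, and ends with the membrane attack complex built of C5b, C6, C7, C8 and C9. Coagulation is a parallel protease cascade that runs through factors VII, X and prothrombin to the cleavage of fibrinogen, with antithrombin and protein C as brakes and plasmin to dissolve the clot, and hepatocytes make most of these proteins.

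*Fgfr4* itself checked the labels of saline and siRNA, but it cannot check those of diet. Its level was 27.9, 25.8, 36.3 and 28.9 CPM (counts scaled to a common library size) in the Chow libraries and 5.95, 6.17, 4.24 and 2.76 CPM in the chow-fed siRNA libraries. In HFD-fed mice it was 30.1, 28.6, 21.8 and 22.4 CPM with saline and 2.82, 2.43, 5.31 and 4.4 CPM with siRNA. The log2 change was -2.62 on chow and -2.78 on HFD, with no overlap between libraries. Total estimated counts ranged from 3445949 to 5976449 per library. CPM here are scaled by trimmed mean of M-values (TMM), and a gene is called changed at p below 0.05 and Benjamini-Hochberg adjusted p below 0.25 by limma-voom over 11324 genes, the threshold of the study, with counts at an adjusted p below 0.05 given beside. In the study's expression heatmaps a column stands for a mouse, so the spread between libraries is taken as that between mice, although the labels do not state it.

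A pair of libraries stood apart. Chow/FGFR4 KD 4 carried a raised acute-phase signature, with a summed level of 32378 CPM over 21 acute-phase genes against 7927 CPM in the lowest library of its group, and its summed level of the 37 genes was 43879 CPM where the other libraries of its group held 29026 to 30662 CPM. HFD/FGFR4 KD 1 lay near the chow libraries. Of the 22 genes called lower on HFD in saline mice, 20 lay at or above the lowest Chow library in HFD/FGFR4 KD 1, whereas the number was 1, 4 and 3 in the other HFD/FGFR4 KD libraries and 0, 2, 0 and 0 in the HFD libraries. Whether the diet label of HFD/FGFR4 KD 1 is right was not tested. Main results that rest on these libraries are given with and without them.

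Compared per kilobase of the longest transcript, the fibrinogen chains led the 37 genes. In the Chow group *Fgg* stood at 1889 and *Fga* at 1630 CPM per kb, followed by *C3* at 951, *Vtn* at 923, *Plg* at 686 and *F2* at 644 CPM per kb. The lowest were *Pros1*, the gene of protein S, at 14.4, *Masp1* at 23.1 and *F11* at 27.1 CPM per kb. *C3*, *Fga* and *Fgg* together made up 34.3 to 52.2% of the summed level of the 37 genes in a library. The summed level took 2.56 to 2.87% of all counts in Chow, 2.73 to 3.78% in Chow/FGFR4 KD, 2.33 to 2.6% in HFD and 2.71 to 2.97% in HFD/FGFR4 KD. On the CPM scale its mean was 30129 ± 3227 (SD, n = 4) in Chow, 33474 ± 6973 in Chow/FGFR4 KD, 22810 ± 1611 in HFD and 27373 ± 2697 in HFD/FGFR4 KD. As a log2 ratio of the means, HFD lay at -0.40 relative to Chow on that scale and at -0.12 when counts were scaled by library totals only.

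The first comparison asked what HFD feeding did in saline mice. HFD lowered a large share of the module, foremost the genes of the membrane attack complex, the fibrinogen chains, *F7* and *C2*, while *Mbl2* rose. In all, 25 of the 37 genes were called, beside 26% of all genes tested. The calls were one-sided: 22 genes were lower, beside 12.7% of all genes called lower, and 3 genes were higher, beside 13.3% called higher. At an adjusted p below 0.05 there were 15 calls, 14 lower and 1 higher, beside 9.2% of all genes. The libraries of Chow and HFD did not overlap for 24 genes, 21 of them lower on HFD, beside 16.1% of all genes. The median log2 change was -0.27 over the 37 genes and 0.01 over all genes. With library totals only, the medians of the 37 genes and of all genes were 0.01 and 0.29. The module thus again lay below the bulk of genes. Under that scaling only 16 of the 37 genes were called, beside 38% of all genes, and only 13 of the 16 were among the 25. Of the 16, 62.5% were lower, against 88% with TMM.

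**Figure D1:**
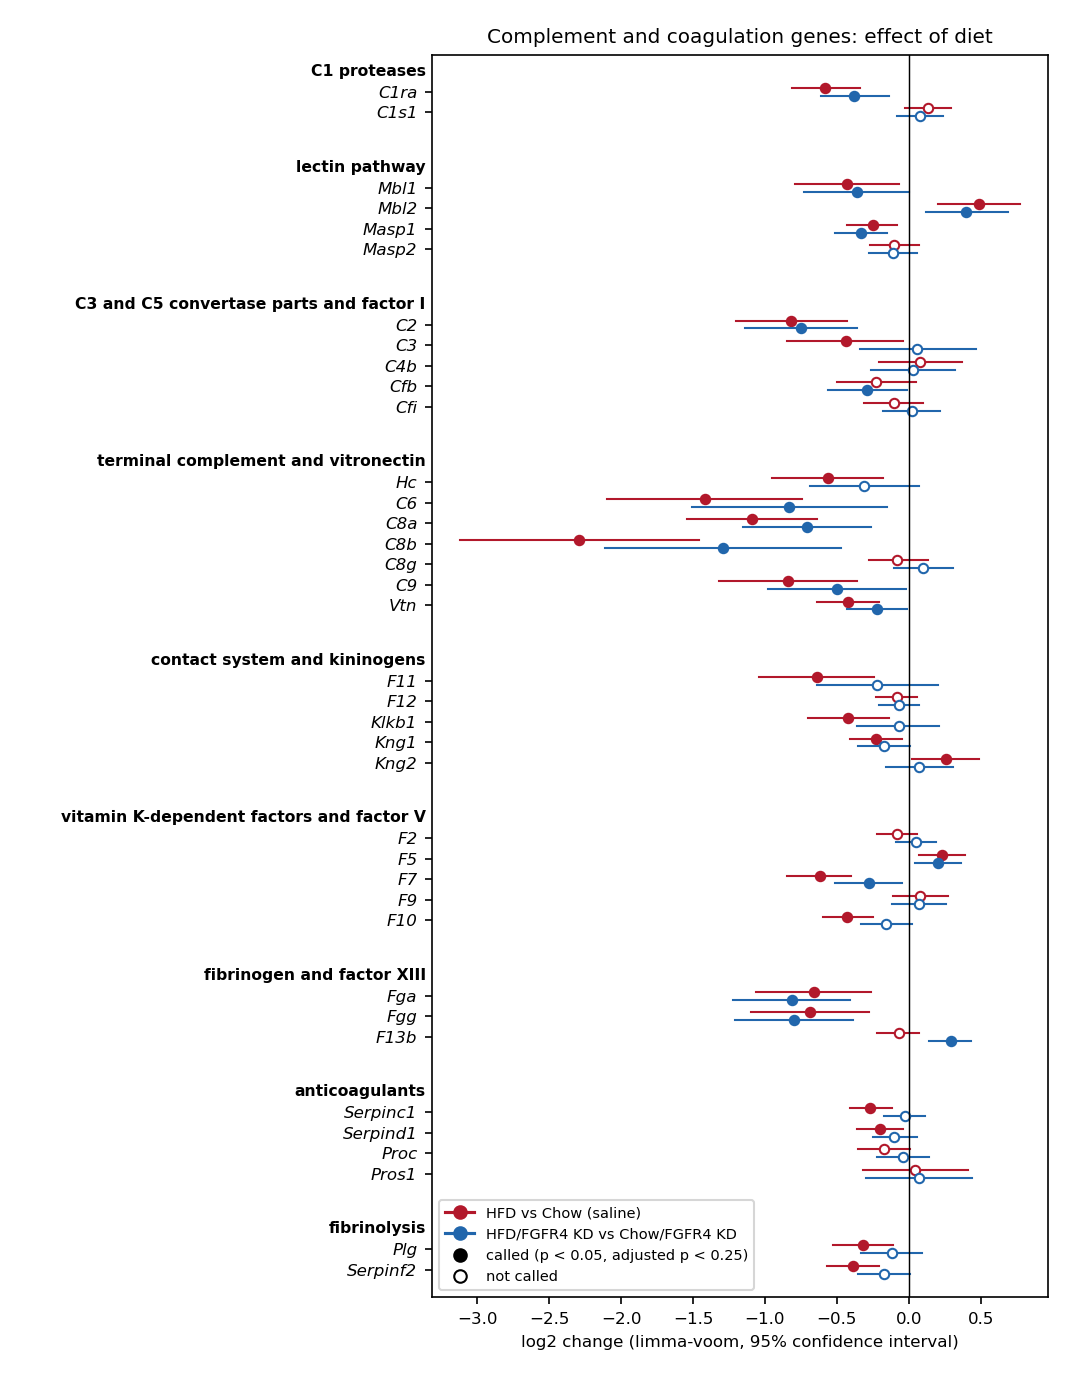
Log2 change on HFD for each of the 37 genes, grouped by role, with its 95% confidence interval by limma-voom, in saline mice (red) and under FGFR4 KD (blue). Filled points passed the threshold, and in saline mice *C8b* at -2.29 and *C6* at -1.42 lay farthest to the left, while *C8g* lay at -0.08.

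The terminal pathway held the widest changes, and within complement component C8 they were unequal. C8 is a protein of alpha, beta and gamma chains encoded by *C8a*, *C8b* and *C8g*. *C8b* measured 353, 375, 221 and 295 CPM in Chow and 30.1, 111, 40 and 120 CPM in HFD, so the highest HFD library lay well below the lowest Chow library. It fell by 2.29 on the log2 scale (SE 0.394, limma-voom adjusted p = 0.00273), to a fitted level 0.205-fold that of Chow. *C8a* measured 654, 831, 571 and 674 CPM in Chow and 242, 389, 276 and 391 CPM in HFD, again without overlap, and fell by 1.09 (SE 0.211, limma-voom adjusted p = 0.00499). *C8g* stood at 228, 225, 247 and 241 CPM in Chow and at 211, 270, 189 and 227 CPM in HFD. Both ranges of *C8g* overlapped, and its log2 change was -0.08 with a 95% interval of -0.28 to 0.13 (limma-voom adjusted p = 0.65). Within a library, the ratio of *C8b* to *C8g* counts was 1.33 ± 0.346 (SD, n = 4) in Chow and 0.324 ± 0.178 in HFD. That of *C8a* to *C8g* was 2.92 ± 0.572 and 1.44 ± 0.236. These ratios do not depend on the scaling between libraries. They were picked after the values were seen and are given without a test.

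In GRCm38 *C8b* lies at chr4:104766317-104804548 on the plus strand and *C8a* beside it at chr4:104815679-104876398 on the minus strand, while *C8g* is on another chromosome at chr2:25498651-25501719. The 250 bases before the RefSeq start of each gene (GRCm38.p6) are shown because the chains of a single protein moved unequally. The windows are chr4:104876399-104876648 on the minus strand, chr4:104766067-104766316 on the plus strand and chr2:25501720-25501969 on the minus strand, read 5′ to 3′ along the gene. They are printed in lower case throughout, since they held no match to the HNF4, TATA box or interleukin-6 letters given with the other promoters.
C8a: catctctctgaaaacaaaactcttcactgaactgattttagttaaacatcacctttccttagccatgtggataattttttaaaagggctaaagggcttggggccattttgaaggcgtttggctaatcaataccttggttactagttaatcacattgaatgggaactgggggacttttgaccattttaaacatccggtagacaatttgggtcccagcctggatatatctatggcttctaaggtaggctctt
C8b: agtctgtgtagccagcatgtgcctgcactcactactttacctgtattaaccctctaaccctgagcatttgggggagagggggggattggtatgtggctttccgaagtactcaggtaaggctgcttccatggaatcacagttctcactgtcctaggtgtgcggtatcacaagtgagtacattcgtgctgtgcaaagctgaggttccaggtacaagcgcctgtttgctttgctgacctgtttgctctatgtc
C8g: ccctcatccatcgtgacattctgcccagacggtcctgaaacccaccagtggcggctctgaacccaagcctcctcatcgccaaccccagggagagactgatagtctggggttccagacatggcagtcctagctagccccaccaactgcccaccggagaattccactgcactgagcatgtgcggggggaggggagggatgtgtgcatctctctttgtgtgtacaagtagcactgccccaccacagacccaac
A promoter sequence was found for 29 of the 37 genes, beside 32851 promoters of all genes. On either strand of these 250 bases, the letters CAAAGTC, a core of HNF4 sites, were in 1 of the 29 (*Vtn*, and 3.84% of all promoters) and the TATA box letters TATAAA in 3 (*Hc*, *Vtn* and *Klkb1*, and 12.4% of all promoters). A match describes the letters only.

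The other genes of the terminal pathway fell together with *C8a* and *C8b*. *C6*, which binds C5b to begin the membrane attack complex, measured 301, 372, 209 and 247 CPM in Chow and 57.2, 165, 75.1 and 159 CPM in HFD. It fell by 1.42 (SE 0.322, limma-voom adjusted p = 0.0119). *C9*, whose copies form the pore, measured 576, 616, 374 and 506 CPM in Chow and 244, 359, 242 and 310 CPM in HFD. It fell by 0.84 (SE 0.227, limma-voom adjusted p = 0.0289). *Hc*, the gene of C5, went from 1030, 1289, 695 and 855 CPM to 637, 677, 569 and 674 CPM and fell by 0.56 (SE 0.181, limma-voom adjusted p = 0.0608). The gap between its diets was narrow, as the lowest Chow library, at 695 CPM, lay just above the highest HFD library. *Vtn*, encoding vitronectin, a plasma protein that binds and blocks forming attack complexes, measured 1528, 1699, 1597 and 1617 CPM in Chow and 1171, 1374, 1082 and 1187 CPM in HFD. It fell by 0.42 (SE 0.101, limma-voom adjusted p = 0.0153). Among the 7 genes of this role, 6 were called lower and *C8g* was not called. With library totals only *Hc* and *Vtn* shrank to -0.28 and -0.15 and were no longer called, while *C6*, *C8a*, *C8b* and *C9* still were.

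**Figure D2:**
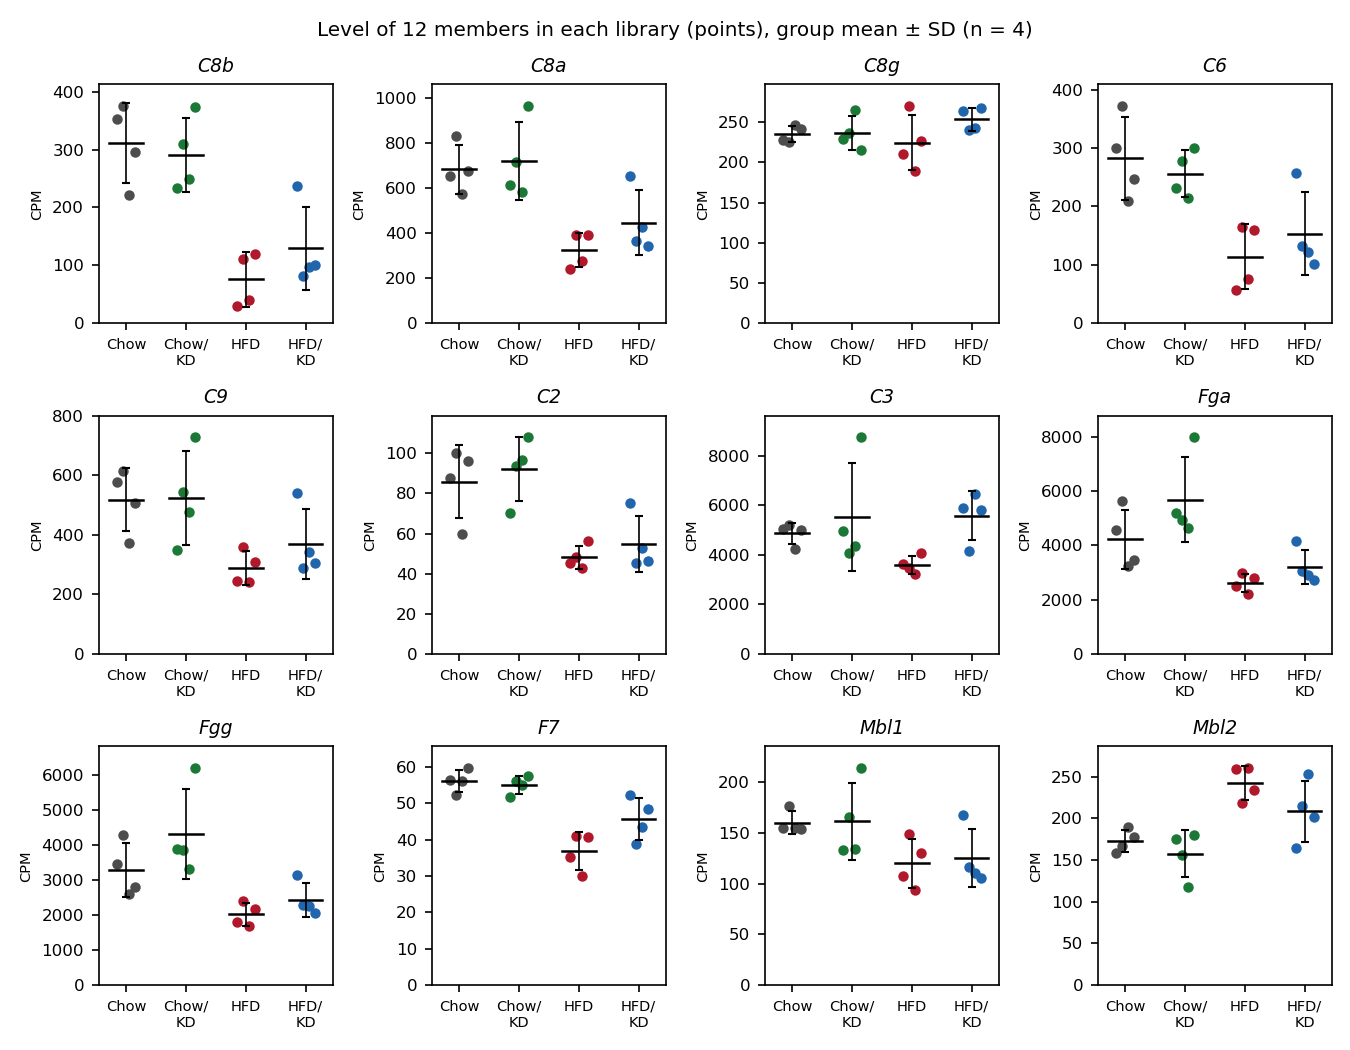
Level in CPM of 12 of the genes in each of the 16 libraries (points), with the mean and SD of each group (bars, n = 4). The HFD points of *C8b* lie at 30.1 to 120 CPM below all Chow points, those of *C8g* lie on both sides of the Chow points, and those of *Mbl2* lie above them at 218 to 260 CPM.

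In the lectin pathway both mannose-binding lectins changed, in opposite directions. These proteins recognize sugars on microbes and activate complement through their associated proteases. *Mbl1* measured 155, 177, 155 and 154 CPM in Chow and 108, 149, 93.8 and 130 CPM in HFD and fell by 0.43 (SE 0.17, limma-voom adjusted p = 0.117). *Mbl2* measured 158, 167, 189 and 177 CPM in Chow and 259, 218, 260 and 234 CPM in HFD and rose by 0.49 (SE 0.135, limma-voom adjusted p = 0.0315). For neither gene did the diets overlap. The ratio of *Mbl2* to *Mbl1* counts within a library was 1.08 ± 0.123 (SD, n = 4) in Chow and 2.11 ± 0.588 in HFD, again a description with no test. *Masp1*, encoding a protease bound to the lectins, measured 135, 112, 115 and 133 CPM in Chow and 106, 99.2, 102 and 107 CPM in HFD. It fell by 0.25 (SE 0.0832, limma-voom adjusted p = 0.0674), a direction that turned to 0.03 with library totals only. *Masp2*, the protease that cleaves C4 and C2, was not called, with a log2 change of -0.10. The *Mbl1* call was lost without Chow 2, HFD 1 or HFD 3, where the unadjusted p by limma-voom passed 0.05, at 0.0548, 0.0542 and 0.0824, the change ranging from -0.39 to -0.32. It was also lost with library totals only, at -0.16.

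Of the classical pathway proteases, *C1ra*, the gene of C1r, measured 262, 287, 235 and 292 CPM in Chow and 170, 189, 156 and 208 CPM in HFD. It fell by 0.58 (SE 0.111, limma-voom adjusted p = 0.00488). *C1s1*, the gene of its partner C1s, measured 420, 394, 375 and 425 CPM in Chow and 455, 439, 439 and 430 CPM in HFD. The HFD libraries of *C1s1* all lay above the Chow libraries, yet the log2 change of 0.13 was not called (limma-voom adjusted p = 0.304). Both genes have a near copy, *C1rb* and *C1s2*, with which 59.6% and 47.6% of their 31-base words are shared, so the split of reads between copies is uncertain. The copies were estimated at no more than 2.02 and 0.347 CPM in any library. *Masp2* shares 53.3% of such words with *Tardbp*.

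Among the convertase genes *C2* fell most. *C2*, the protease subunit of the classical C3 convertase, measured 87.7, 100, 59.8 and 96.2 CPM in Chow and 45.1, 48.4, 42.8 and 56.3 CPM in HFD. It fell by 0.82 (SE 0.181, limma-voom adjusted p = 0.0108). *C3*, the central component, measured 5063, 5199, 4258 and 5019 CPM in Chow and 3627, 3462, 3211 and 4070 CPM in HFD. It fell by 0.44 (SE 0.191, limma-voom adjusted p = 0.152). *Cfb*, encoding factor B, the protease of the alternative convertase, measured 888, 1040, 842 and 948 CPM in Chow and 813, 784, 782 and 792 CPM in HFD. Its libraries did not overlap, but its change of -0.23 was not called (limma-voom adjusted p = 0.291). *C4b*, encoding C4, and *Cfi*, encoding the inactivating protease factor I, were not called, at 0.08 and -0.10. *C2* and *Cfb* lie next to each other on chromosome 17 and share 44.4% and 75.5% of their 31-base words with a read-through transcript, *Gm20547*, and *C4b* shares 48.3% with *C4a*. The *C3* call was lost on leaving out Chow 1, Chow 2, Chow 4, HFD 1, HFD 2 or HFD 3, where the unadjusted p by limma-voom passed 0.05, at 0.0511 to 0.0794, with changes of -0.45 to -0.39. With library totals only the change was -0.16 and not called.

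In coagulation the fibrinogen chains fell in step. Fibrinogen, the precursor of the clot, consists of alpha, beta and gamma chains encoded by *Fga*, *Fgb* and *Fgg*. *Fga* measured 4548, 5615, 3242 and 3458 CPM in Chow and 2517, 2973, 2208 and 2790 CPM in HFD and fell by 0.66 (SE 0.191, limma-voom adjusted p = 0.0393). *Fgg* measured 3462, 4294, 2608 and 2794 CPM in Chow and 1805, 2402, 1698 and 2161 CPM in HFD and fell by 0.69 (SE 0.195, limma-voom adjusted p = 0.0342). Neither gene overlapped between the diets. The third chain, *Fgb*, is not one of the 37 genes, and it fell by 0.68 (SE 0.187, limma-voom adjusted p = 0.0314). The ratio of *Fgg* to *Fga* counts stayed between 0.715 and 0.808 in all 16 libraries, and that of *Fgb* to *Fga* between 0.821 and 0.937, although the level of *Fga* itself ran from 2208 to 7977 CPM. *F13b*, the carrier subunit of the clot-crosslinking factor XIII, was not called, at -0.07 (limma-voom adjusted p = 0.53).

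The fibrinogen genes lie side by side on chromosome 3, *Fgg* at chr3:83007724-83015049 and *Fga* at chr3:83026076-83033627 on the plus strand and *Fgb* at chr3:83040141-83049863 on the minus strand. Their 250 bases before the RefSeq start (GRCm38.p6) are shown because the chains moved together, at chr3:83025903-83026152 and chr3:83007474-83007723 on the plus strand and chr3:83049864-83050113 on the minus strand. The *Fga* window overlaps the gene as placed above, because its RefSeq start lies farther downstream. Capitals mark CTGGGAA, the core of the interleukin-6 element of acute-phase genes.
Fga: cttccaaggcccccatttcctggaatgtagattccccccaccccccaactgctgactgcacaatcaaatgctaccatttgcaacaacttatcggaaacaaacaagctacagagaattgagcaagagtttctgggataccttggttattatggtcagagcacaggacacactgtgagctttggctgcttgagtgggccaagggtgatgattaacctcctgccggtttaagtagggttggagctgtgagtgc
Fgb: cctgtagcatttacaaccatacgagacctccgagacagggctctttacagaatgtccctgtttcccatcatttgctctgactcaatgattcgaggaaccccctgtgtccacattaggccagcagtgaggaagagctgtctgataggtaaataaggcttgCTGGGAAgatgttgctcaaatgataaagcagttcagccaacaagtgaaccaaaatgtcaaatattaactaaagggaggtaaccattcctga
Fgg: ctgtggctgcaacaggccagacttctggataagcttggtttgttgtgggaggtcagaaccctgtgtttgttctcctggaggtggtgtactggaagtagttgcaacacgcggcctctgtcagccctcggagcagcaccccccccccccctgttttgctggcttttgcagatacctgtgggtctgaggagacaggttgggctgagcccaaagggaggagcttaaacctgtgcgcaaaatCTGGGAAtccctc
The *Fgb* window held CTGGGAA 91 bases before the start and the *Fgg* window 13 bases before it, and the *Fga* window held none on either strand. CTGGGAA was in 4 of the 29 promoters of the module (*C1ra*, *Masp2*, *F9* and *Fgg*) and in 9.1% of all promoters.

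The vitamin K-dependent factors split by gene. *F7*, the factor that starts coagulation with tissue factor, measured 56.4, 52.2, 56.2 and 59.7 CPM in Chow and 35.3, 41, 30 and 40.8 CPM in HFD. It fell by 0.62 (SE 0.108, limma-voom adjusted p = 0.00273). *F10*, whose product activates prothrombin, measured 333, 330, 318 and 360 CPM in Chow and 254, 277, 231 and 238 CPM in HFD and fell by 0.43 (SE 0.082, limma-voom adjusted p = 0.00488). For both genes the diets were separated, but with library totals only *F10* shrank to -0.15 and was not called. *F2*, encoding prothrombin, and *F9*, encoding the factor lacking in hemophilia B, were not called, at -0.08 and 0.08. *F5*, the cofactor of factor X, measured 470, 521, 420 and 469 CPM in Chow and 570, 528, 515 and 591 CPM in HFD and rose by 0.23 (SE 0.0742, limma-voom adjusted p = 0.0601), with 1 HFD library inside the Chow range.

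The contact system, in which factor XII, prekallikrein and kininogen activate factor XI and release bradykinin, was likewise mixed. *F11* measured 66.4, 62.6, 48.3 and 65.1 CPM in Chow and 30.1, 50.8, 34 and 43.2 CPM in HFD and fell by 0.64 (SE 0.19, limma-voom adjusted p = 0.0443). *Klkb1*, the gene of prekallikrein, measured 283, 254, 317 and 320 CPM in Chow and 215, 266, 203 and 196 CPM in HFD and fell by 0.42 (SE 0.133, limma-voom adjusted p = 0.0568). Each of these had 1 HFD library, HFD 2, inside the Chow range, and *Klkb1* was not called with library totals only, at -0.14. *F12*, the gene of factor XII, was not called, at -0.08.

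The kininogen genes moved apart. *Kng1* measured 1227, 1407, 1289 and 1303 CPM in Chow and 1108, 1162, 1078 and 1102 CPM in HFD and fell by 0.23 (SE 0.0856, limma-voom adjusted p = 0.1), a direction that turned to 0.05 with library totals only. *Kng2* measured 131, 162, 136 and 143 CPM in Chow and 177, 167, 173 and 164 CPM in HFD and rose by 0.26 (SE 0.112, limma-voom adjusted p = 0.161). The ratio of *Kng2* to *Kng1* counts within a library was 0.109 ± 0.00413 (SD, n = 4) in Chow and 0.153 ± 0.00834 in HFD, given as a description. The genes share 26.5% and 30.6% of their 31-base words with each other, so part of their reads could be assigned to either. The *Kng2* call was lost without Chow 1, Chow 3, Chow 4, HFD 1 or HFD 3, where the unadjusted p by limma-voom was 0.0582 to 0.101, with changes of 0.21 to 0.26.

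**Figure D3:**
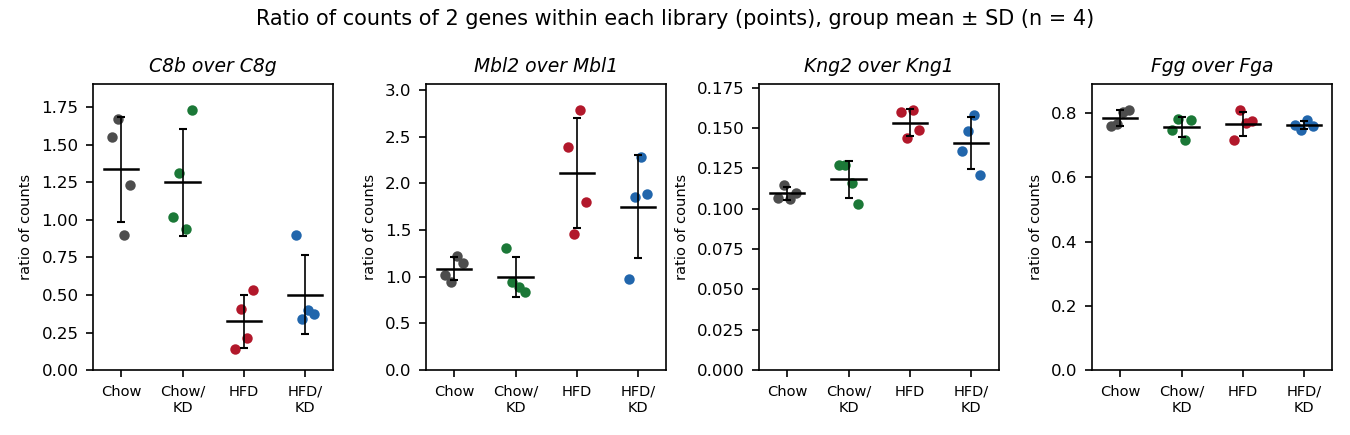
Ratio of the counts of 2 genes within each of the 16 libraries (points), with the mean and SD of each group (n = 4), on a linear axis from 0. The ratio of *C8b* to *C8g* is 1.33 in Chow and 0.324 in HFD on average, those of *Mbl2* to *Mbl1* and *Kng2* to *Kng1* are higher on HFD, and that of *Fgg* to *Fga* lies between 0.715 and 0.808 throughout.

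Of the anticoagulants and the fibrinolysis genes, 4 of 6 were called lower and none higher, beside 12.7% and 13.3% of all genes. *Serpinc1*, encoding antithrombin, the inhibitor of thrombin and factor Xa, measured 1482, 1585, 1591 and 1620 CPM in Chow and 1351, 1400, 1248 and 1227 CPM in HFD. It fell by 0.27 (SE 0.067, limma-voom adjusted p = 0.0198), a direction that turned to 0.01 with library totals only. *Serpind1*, encoding heparin cofactor II, measured 407, 407, 400 and 408 CPM in Chow and 384, 355, 332 and 346 CPM in HFD. It fell by 0.20 (SE 0.0742, limma-voom adjusted p = 0.102), which turned to 0.08 with library totals only, and the call was lost without HFD 3, where the unadjusted p by limma-voom was 0.0523. *Plg*, the gene of plasminogen, measured 1796, 2064, 1811 and 1900 CPM in Chow and 1468, 1753, 1323 and 1526 CPM in HFD and fell by 0.32 (SE 0.0995, limma-voom adjusted p = 0.051). *Serpinf2*, whose product alpha-2-antiplasmin blocks plasmin, measured 542, 597, 511 and 546 CPM in Chow and 421, 479, 369 and 415 CPM in HFD and fell by 0.39 (SE 0.0856, limma-voom adjusted p = 0.0107). With library totals only, the changes of *Plg* and *Serpinf2* shrank to -0.04 and -0.11 and neither was called, so none of these 4 calls held under that scaling. *Proc* and *Pros1*, encoding protein C and its cofactor protein S, were not called, at -0.17 and 0.04.

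Markers of other liver cells moved with the diet in the same libraries, where 13.3% of all genes were called higher. Of 12 Kupffer cell and macrophage markers 11 (91.7%) were called higher on HFD in saline mice, and their summed level was 95 to 97.9 CPM in Chow and 160 to 284 CPM in HFD. Of 9 stellate cell markers 5 (55.6%) were called higher, with a summed level of 109 to 160 CPM in Chow and 175 to 302 CPM in HFD. The 11 hepatocyte markers in the table summed to 68299 to 74370 CPM in Chow and 65037 to 77182 CPM in HFD, with 4 of them (36.4%) called lower, beside 12.7% of all genes, and none higher. The share of counts taken by a single noncoding transcript, *Gm42418*, was 13.44 to 22.7% in Chow and 11.07 to 15.63% in HFD. It was 14.82 to 20.61% in Chow/FGFR4 KD and 13.72 to 22.31% in HFD/FGFR4 KD. In each of these KD groups the highest share was in the library that stood apart, Chow/FGFR4 KD 4 or HFD/FGFR4 KD 1. In bulk RNA fewer cells of a type and less RNA per cell cannot be told apart, and the part of these shifts in the changes of the 37 genes was not tested.

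The same diet comparison in FGFR4 KD mice used none of the saline libraries. There 16 of the 37 genes were called, beside 20.2% of all genes, 13 of them lower (10.1% of all genes) and 3 higher (10.1% of all genes). The 5 calls at an adjusted p below 0.05 (3.1% of all genes) were *C2*, *Fga*, *Fgg* and *Masp1*, all lower, and *F13b*, which was higher. The libraries did not overlap for 7 genes, beside 11.5% of all genes. The median log2 change was -0.12, against -0.01 over all genes. Scaled by library totals only, 13 genes were called, beside 20.1% of all genes, and 10 of the 13 were among the 16. Of the 13, 53.8% were lower against 81.2% with TMM. Without HFD/FGFR4 KD 1 the count was 19, beside 22.3% of all genes. Without Chow/FGFR4 KD 2, HFD/FGFR4 KD 2 or HFD/FGFR4 KD 3 it was 10, 9 and 8. The share of all genes called fell too in these 3 fits, to 16.1%, 13.1% and 12.8%.

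The 14 genes called in both diet comparisons changed in the same direction in each, 12 lower and 2 higher. They were 56.0% of the calls in saline mice and 87.5% of those under KD, whereas over all genes these shares were 38% and 48.7%. Of the 25 genes called in saline mice, 24 had a change of the same sign under KD, beside 86.7% of the called genes overall. Genes lowered in both were *C1ra*, *Mbl1*, *Masp1*, *C2*, *C6*, *C8a*, *C8b*, *C9*, *Vtn*, *F7*, *Fga* and *Fgg*, and *Mbl2* and *F5* were higher in both. *Cfb* and *F13b* were called under KD and not in saline mice, and 10 genes were called in neither comparison.

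The terminal pathway was again lower on HFD under KD, with library HFD/FGFR4 KD 1 above the rest of its group. *C8b* measured 233, 309, 249 and 373 CPM in Chow/FGFR4 KD and 237, 81.7, 96.5 and 101 CPM in HFD/FGFR4 KD, so that library 1 reached the Chow/FGFR4 KD range and the others did not. *C8b* fell by 1.29 (SE 0.388, limma-voom adjusted p = 0.0791), or by 1.63 without library 1. *C8a* measured 613, 714, 583 and 963 CPM in Chow/FGFR4 KD and 654, 364, 426 and 341 CPM in HFD/FGFR4 KD and fell by 0.71 (SE 0.211, limma-voom adjusted p = 0.0763). Again library 1 lay inside the chow range, and without it *C8a* fell by 0.91. *C6* measured 231, 278, 215 and 301 CPM and then 258, 132, 122 and 101 CPM on HFD, with a fall by 0.83 (SE 0.321, limma-voom adjusted p = 0.162). *C9* measured 350, 543, 477 and 728 CPM and then 542, 288, 344 and 307 CPM, with a fall by 0.50 (SE 0.227, limma-voom adjusted p = 0.224). Without HFD/FGFR4 KD 1 the changes of *C6* and *C9* were -1.11 and -0.70, and without Chow/FGFR4 KD 4 they were -0.75 and -0.33 and no longer called. *C8g* stood at 229, 237, 265 and 216 CPM in Chow/FGFR4 KD and at 264, 240, 243 and 268 CPM in HFD/FGFR4 KD, and its change of 0.10 was not called (limma-voom adjusted p = 0.583). The ratio of *C8b* to *C8g* counts was 1.25 ± 0.356 (SD, n = 4) in Chow/FGFR4 KD and 0.503 ± 0.266 in HFD/FGFR4 KD, where library 1 stood at 0.9 and the other libraries at 0.34 to 0.397.

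Fibrinogen and *C2* fell on HFD under KD with less overlap. *Fga* measured 5204, 4920, 4636 and 7977 CPM in Chow/FGFR4 KD and 4141, 3047, 2906 and 2714 CPM in HFD/FGFR4 KD and fell by 0.81 (SE 0.192, limma-voom adjusted p = 0.0313). *Fgg* measured 3892, 3848, 3313 and 6194 CPM and then 3154, 2278, 2259 and 2062 CPM on HFD, a fall by 0.80 (SE 0.195, limma-voom adjusted p = 0.0367). Neither chain overlapped between the diets, even with HFD/FGFR4 KD 1 and Chow/FGFR4 KD 4 included, and without both libraries the changes were -0.77 and -0.74. *C2* measured 70, 93.5, 96.5 and 108 CPM and then 75.2, 45.3, 52.7 and 46.1 CPM and fell by 0.75 (SE 0.184, limma-voom adjusted p = 0.0372). *Masp1* measured 122, 112, 133 and 127 CPM and then 102, 102, 101 and 87.3 CPM and fell by 0.33 (SE 0.0843, limma-voom adjusted p = 0.0448), and this call was lost with library totals only (adjusted p = 0.386). *C1ra* measured 246, 283, 248 and 305 CPM and then 241, 182, 199 and 212 CPM and fell by 0.38 (SE 0.111, limma-voom adjusted p = 0.0736).

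*F13b* rose on HFD under KD and had not been called in saline mice. It measured 132, 117, 130 and 123 CPM in Chow/FGFR4 KD and 155, 142, 156 and 158 CPM in HFD/FGFR4 KD, an increase of 0.29 (SE 0.068, limma-voom adjusted p = 0.0333). In saline mice it had measured 141, 147, 140 and 152 CPM on chow and 143, 143, 134 and 132 CPM on HFD, so the Chow/FGFR4 KD libraries lay at the low end of the 16 and all HFD/FGFR4 KD libraries but library 2 at the high end. *F5* measured 456, 441, 436 and 434 CPM and then 498, 516, 525 and 492 CPM under KD and rose by 0.20 (SE 0.0737, limma-voom adjusted p = 0.142). *Mbl2* measured 175, 156, 118 and 180 CPM and then 164, 215, 253 and 201 CPM and rose by 0.40 (SE 0.135, limma-voom adjusted p = 0.111). Its ratio to *Mbl1* was 0.994 ± 0.216 (SD, n = 4) and 1.75 ± 0.554, with HFD/FGFR4 KD 1 at 0.972.

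The remaining genes called lower on HFD under KD lay near the threshold. *F7* fell by 0.28, *Vtn* by 0.22, *Mbl1* by 0.36 and *Cfb* by 0.29, at limma-voom adjusted p-values of 0.163, 0.236, 0.244 and 0.224. The calls of *C6*, *C9*, *F7*, *Mbl1*, *Vtn* and *Cfb* were each lost on leaving out any of 4 or more single libraries, among them Chow/FGFR4 KD 2, Chow/FGFR4 KD 4, HFD/FGFR4 KD 2 and HFD/FGFR4 KD 3 for every one of the 6, with adjusted p-values of 0.253 to 0.532. Without Chow/FGFR4 KD 4 the changes of *Cfb*, *Mbl1* and *Vtn* shrank to -0.11, -0.22 and -0.13. Those of *Mbl2* and *F5* were lost without HFD/FGFR4 KD 3, at 0.273 and 0.269, and that of *F5* also without HFD/FGFR4 KD 2 (adjusted p = 0.25). Without both libraries that stood apart, HFD/FGFR4 KD 1 and Chow/FGFR4 KD 4, 15 genes were called, 14 of them among the 16, beside 18.8% of all genes. *Hc*, *F10*, *F11*, *Klkb1*, *Kng1*, *Kng2*, *Serpinc1*, *Serpind1*, *Plg*, *Serpinf2* and *C3*, called in saline mice, were not called here, with changes between -0.31 for *Hc* and 0.07 for *Kng2*.

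Markers of other liver cells were read on HFD under KD too, where 20.2% of all genes were called and 10.1% called higher. Of the Kupffer cell and macrophage markers 4 of 12 (33.3%) were called higher, with a summed level of 114 to 155 CPM in Chow/FGFR4 KD and 138 to 238 CPM in HFD/FGFR4 KD, and of the stellate cell markers 2 of 9 (22.2%), with 88.8 to 145 and 129 to 210 CPM. Of 8 endothelial markers 3 were called higher on HFD in saline mice (37.5%) and 1 under KD (12.5%), their summed level running from 78.6 to 157 CPM over all libraries. Cholangiocyte markers summed to 14.4 to 92.5 CPM and lymphocyte and neutrophil markers to 3.89 to 9.07 CPM. Of the 5 adipocyte markers only *Cfd* passed the filter on low counts. It made up nearly the whole of their sum on HFD in saline mice, at 10.7 to 24.4 of 10.9 to 24.6 CPM, while *Lep* was at 0 in every library and *Adipoq*, *Plin1* and *Retn* were at no more than 1.21 CPM in any. With KD on HFD 0 of the Kupffer cell, endothelial or stellate cell markers were called by limma-voom, and 1 in each list had an unadjusted p below 0.05. Of the 11 hepatocyte markers 5 had an unadjusted p below 0.05 in that comparison and 2 were called (18.2% beside 3.14% of all genes), *Ass1* at 0.54 and *Ttr* at -0.51. On HFD under KD *Apoh* and *Asgr2* were called higher, at 0.22 and 0.20, and *Tat* lower, at -0.75. The hepatocyte markers summed to 63144 to 79309 CPM in Chow/FGFR4 KD and 66996 to 84963 CPM in HFD/FGFR4 KD, and their part in the changes was not tested.

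**Figure D4:**
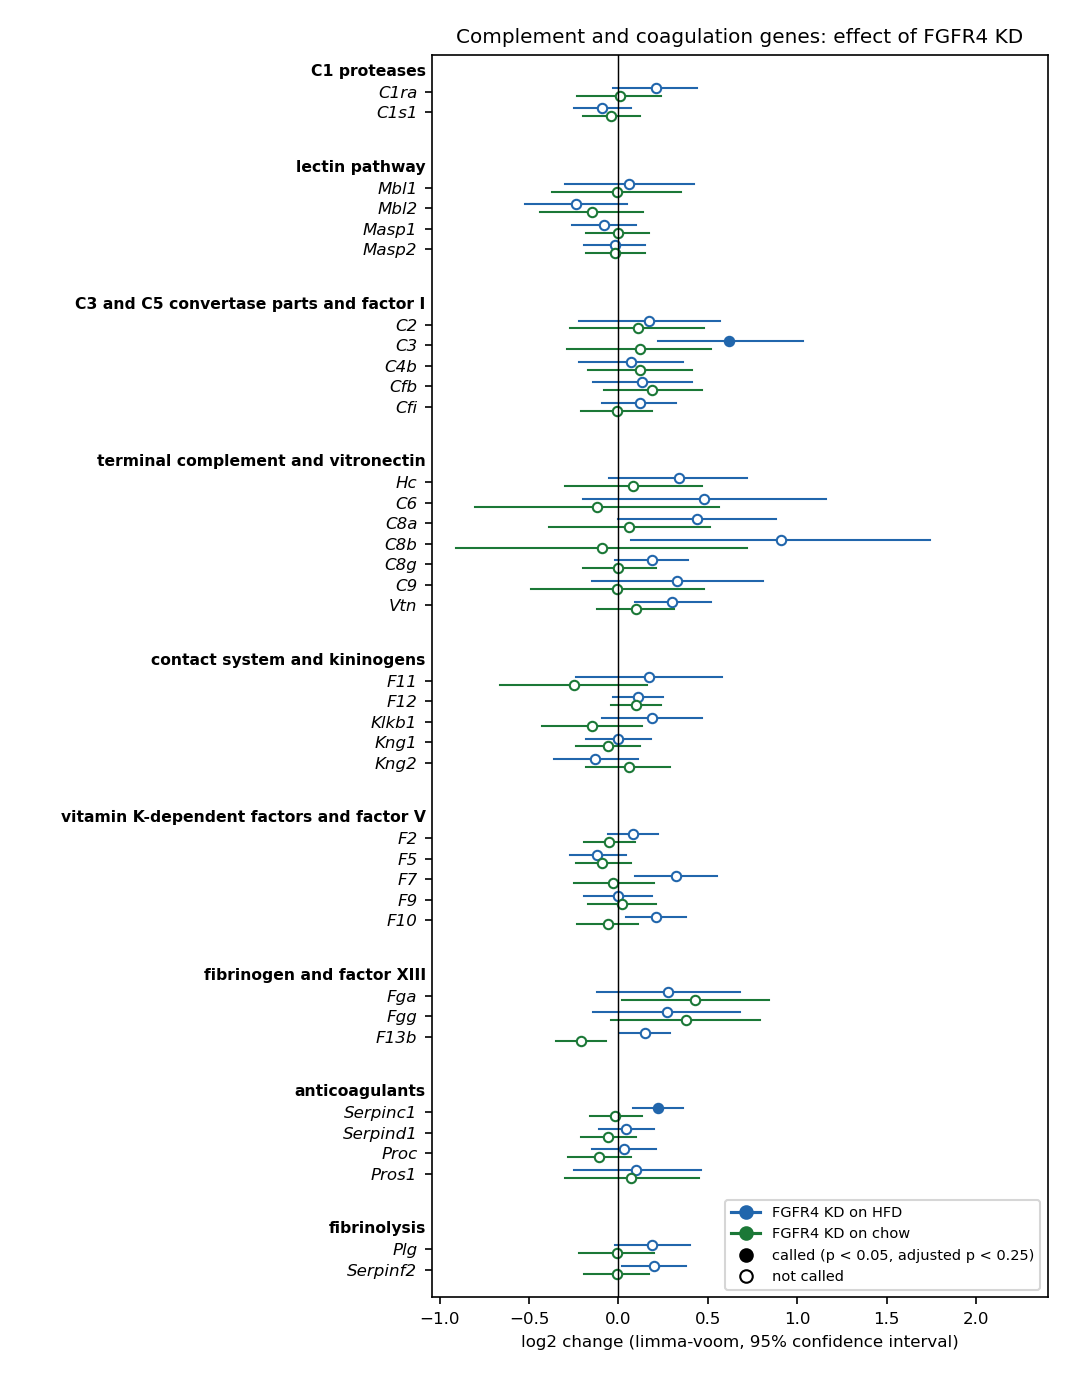
Log2 change with FGFR4 KD for each of the 37 genes, grouped by role, with its 95% confidence interval by limma-voom, on HFD (blue) and on chow (green). The filled points are *C3* at 0.62 and *Serpinc1* at 0.22 on HFD, and no gene was called on chow.

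The comparison of siRNA with saline on HFD asked whether *Fgfr4* loss altered the module in obese mice. *C3* and *Serpinc1* rose, and they were the only genes called, 2 of 37 beside 3.14% of all genes called and 1.5% called higher, so their number was not far from the background share. At an adjusted p below 0.05 limma-voom called 0 of the 37 (0.274% of all genes). By an unadjusted p below 0.05 there were 8 (11% of all genes), the pair and *Vtn*, *F7*, *F10*, *Serpinf2*, *C8b* and *F13b*, all with higher estimates under KD. edgeR called 0 (2.17% of all genes) and DESeq2 3 (3.1% of all genes). The libraries did not overlap for *C3*, *Cfb*, *Hc* and *Serpinc1*, 4 of 37 beside 6.49% of all genes. The median change was 0.17 against 0.00 over all genes, and 31 of the 37 estimates lay above 0, beside 5736 of all 11324 genes. The median of the 37 was 0.12 without HFD/FGFR4 KD 1 and 0.11 without both libraries that stood apart.

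*C3* measured 3627, 3462, 3211 and 4070 CPM in HFD and 5915, 4170, 6441 and 5831 CPM in HFD/FGFR4 KD, where library 2 lay close to the highest HFD library. It rose by 0.62 (SE 0.192, 95% interval 0.22 to 1.03, limma-voom adjusted p = 0.211). *Serpinc1* measured 1351, 1400, 1248 and 1227 CPM in HFD and 1518, 1468, 1536 and 1569 CPM in HFD/FGFR4 KD and rose by 0.22 (SE 0.0671, limma-voom adjusted p = 0.203). *Serpinc1* shares 35.6% of its 31-base words with *Zbtb37*. Neither call was firm. *C3* was not called by edgeR (adjusted p = 0.262) or without HFD 1, HFD 3, HFD/FGFR4 KD 1, HFD/FGFR4 KD 3 or HFD/FGFR4 KD 4, with adjusted p-values of 0.333 to 0.452 and changes of 0.55 to 0.63. *Serpinc1* was not called by edgeR (adjusted p = 0.364), nor without those same libraries or HFD 4, with adjusted p-values of 0.293 to 0.445 and changes of 0.19 to 0.24. With library totals only neither was called, *C3* at 0.55 (limma-voom adjusted p = 0.314) and *Serpinc1* at 0.15 (limma-voom adjusted p = 0.689). *Serpinc1* was also lost with a replicate block and with only the groups compared (limma-voom adjusted p = 0.303 and 0.328). Without both libraries that stood apart, *C3* alone was called, beside 1.81% of all genes. Without HFD 2, 8 genes were called, and without HFD/FGFR4 KD 2 there were 5. The shares of all genes called in these fits were 5.33% and 3.97%.

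*Cfb* and *Hc* showed separation of libraries without a call. *Cfb* measured 813, 784, 782 and 792 CPM in HFD and 946, 820, 875 and 838 CPM in HFD/FGFR4 KD, with a change of 0.13 (limma-voom adjusted p = 0.774). *Hc* went from 637, 677, 569 and 674 CPM to 950, 731, 838 and 721 CPM, with a change of 0.34 (limma-voom adjusted p = 0.526). *C8b* had the widest estimate, 0.91 with a 95% interval of 0.07 to 1.74, and was not called (limma-voom adjusted p = 0.406). Its HFD libraries at 30.1 to 120 CPM overlapped the HFD/FGFR4 KD libraries at 81.7 to 237 CPM. Without HFD/FGFR4 KD 1 the change of *C8b* was 0.57 (limma-voom adjusted p = 0.729), and the changes of *C6*, *C9* and *Hc* went from 0.48, 0.33 and 0.34 to 0.20, 0.13 and 0.26. This comparison and the diet comparison in saline mice share the HFD libraries, so a low HFD value enters both with opposite sign. Side by side, the diet and KD changes were -0.44 and 0.62 for *C3*, -2.29 and 0.91 for *C8b*, -0.27 and 0.22 for *Serpinc1*, -0.62 and 0.32 for *F7* and -0.66 and 0.28 for *Fga*. *Fga* and *Fgg* were not called, at 0.28 and 0.27 with intervals of -0.12 to 0.68 and -0.14 to 0.68.

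On chow limma-voom called 0 of the 37 genes with KD, beside 0.00883% of all genes, which was *Fgfr4* alone. An unadjusted p below 0.05 was reached by 2 genes (4.58% of all genes), *F13b* and *Fga*, and edgeR and DESeq2 called 0. The libraries did not overlap for 1 gene, *F13b* (2.52% of all genes), with a change of -0.21 (95% interval -0.35 to -0.07, limma-voom adjusted p = 0.976). *Fga* stood at 0.43 with an interval of 0.02 to 0.84 and *Fgg* at 0.38 with an interval of -0.04 to 0.79, both at an adjusted p of 0.976. Without Chow/FGFR4 KD 4 they were 0.26 and 0.19, with unadjusted p-values above 0.05. That library stood at 7977 and 6194 CPM against 4636 to 5204 and 3313 to 3892 CPM in the rest of its group. *C3* in that library was 8755 CPM against 4067 to 4978 CPM. The median change over the 37 genes was -0.01, and the log2 ratio of summed levels was 0.15, or -0.01 without Chow/FGFR4 KD 4. For *C8b*, *C6* and *C9* the intervals ran from -0.91 to 0.72, -0.80 to 0.56 and -0.49 to 0.48, so changes of that size were not detectable here.

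A test for dependence of the KD response on diet took the difference of the KD changes, which equals the difference of the diet changes. limma-voom called 0 of the 37 genes (0.0353% of all genes) and edgeR 0, while 4 had an unadjusted p below 0.05 (6.76% of all genes), *F13b*, *Serpinc1*, *F10* and *F7*. *F13b* had the smallest p of the 37, with a difference of 0.36 (95% interval 0.16 to 0.56, limma-voom adjusted p = 0.497), and DESeq2 called it (adjusted p = 0.093) along with *Serpinc1* at 0.24 (adjusted p = 0.234). For *C8b* the difference was 1.0 with an interval of -0.17 to 2.17 and for *C3* 0.51 with an interval of -0.07 to 1.08, neither called. Without HFD/FGFR4 KD 1 that of *C8b* was 0.66, and without Chow/FGFR4 KD 4 that of *C3* was 0.75 (limma-voom adjusted p = 0.453). Among the 22 genes lowered by HFD in saline mice, 19 had a smaller change under KD, which is described without a test because those genes were chosen by their change in saline mice.

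Other genes of the same pathways were taken from lists made with earlier results of these data known. Of 25 tested complement genes outside the module, 8 were higher and 6 lower on HFD in saline mice (56% beside 26% of all genes called), with a median of 0.01. The subunits of the recognition protein C1q, made largely by macrophages, rose, *C1qa* by 1.03 and *C1qc* by 0.74. *Cfd*, encoding the protease factor D known from adipocytes, rose by 2.82 from a low level. It was 0.261 to 11 CPM in Chow and 10.7 to 24.4 CPM in HFD. The factor H-related gene *Cfhr2* fell by 0.50 and *Colec12*, a scavenger collectin, by 0.44. Under KD 5 were higher and 4 lower on HFD, among them *Cfhr2* at -0.41, *Cfd* at 3.22, *Colec12* at -0.31, *Colec11* at 0.66, *C4a* at -1.68 and *C1qb* at 0.73. The change of *Cfd* started near 0, with 0 to 3.17 CPM in Chow/FGFR4 KD and 3.65 to 8.19 CPM in HFD/FGFR4 KD. *Cfd* lay under 1 CPM in Chow 2 and in Chow/FGFR4 KD 2, 3 and 4, the most libraries that the filter allowed. With KD on HFD 1 gene was called, *Cfd*, which fell by 1.57.

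Of 18 tested coagulation genes outside the module, 2 were higher and 5 lower on HFD in saline mice (38.9% called), with a median of -0.11. *Serpine2*, encoding the thrombin inhibitor protease nexin-1, fell by 1.99, *Mug1*, a murinoglobulin protease inhibitor, by 0.54, *Cpb2*, whose product slows fibrinolysis, by 0.42 and *Proz*, encoding protein Z, by 0.30. *Vwf*, the endothelial carrier of factor VIII, rose by 1.07. On HFD under KD 1 was higher and 5 lower (33.3% called beside 20.2% of all genes). They were *Mug2* at 0.59, *Fgb* at -0.75, *Cpb2* at -0.56, *Serpine2* at -1.20, the thrombin receptor *F2r* at -0.69 and the protease *Hpn* at -0.23. With KD on HFD *Mug2* rose by 0.54 and *Hpn* fell by 0.23. In the vitamin K cycle, which recharges the cofactor for carboxylation of factors II, VII, IX and X, *Vkorc1* fell by 0.31 and *Vkorc1l1* and *Nqo1* rose by 0.32 and 1.12 on HFD in saline mice. Under KD *Ggcx*, the carboxylase, fell by 0.27 and *Vkorc1* by 0.26 on HFD, and with KD on HFD *Nqo1* fell by 1.02.

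Acute-phase genes, many of which share interleukin-6 control with fibrinogen, were mostly not called. Of 20 tested, *Il1rn* at 2.51 and *Orm2* at 1.79 were called higher on HFD in saline mice and 0 lower, with a median of 0.14. This was 10% called, beside 26% of all genes. On HFD under KD 3 were lower (15% called beside 20.2% of all genes), *Socs3* at -1.66, *Crp* at -0.46 and *Lrg1* at -0.67. With KD on HFD limma-voom called 0, none of the 20 having an unadjusted p below 0.05. On chow with KD 0 were called and 4 had an unadjusted p below 0.05, with a median of 0.60, and Chow/FGFR4 KD 4 held 2677 CPM of *Saa1* against 30.6 to 306 CPM in the rest of its group.

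Of 20 hepatocyte transcription factors, 3 were higher and 2 lower on HFD in saline mice, a share of 25% called that lay at the background of 26% of all genes. *Ppara*, *Nr1i3* and *Cebpa* rose by 0.61, 0.63 and 0.25, and *Foxa3* and *Hnf4a* fell by 0.74 and 0.44. On HFD under KD 5 were higher, among them *Ppara*, *Cebpa*, *Nr1i3* and *Nr1h4* by 0.35 to 0.90, and *Foxa3* fell by 0.74. This was a share of 30% called beside 20.2% of all genes. With KD on HFD *Cebpb*, encoding the acute-phase factor C/EBP beta, rose by 1.32 (limma-voom adjusted p = 0.16), at 25.6 to 36.6 CPM in HFD and 62.9 to 89.6 CPM in HFD/FGFR4 KD. The part of these factors in the changes of the 37 genes was not tested.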

How the data were processed

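Whole-liver RNA was measured in 16 libraries, 4 per group. The authors trimmed and quantified reads with fastp and kallisto on GRCm38, per the submitters' processing notes, and summarized them per gene with tximport. Tool versions and the annotation release are not given in the sources used here. The deposited values are estimated counts per gene, not normalized, of which 7.85 to 11.1% per library are not whole, and 27199 of 52143 genes were at 0 in every library. The labels name a poly(A) mRNA kit and the published methods another assay, so how the libraries were made is uncertain.

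Following the study's methods, genes under 1 CPM in more than 4 libraries were dropped, counts were scaled by TMM (edgeR 4.0.16) and all groups were fitted in one limma-voom model (limma 3.58.1, R 4.3.3), with a call at p below 0.05 and adjusted p below 0.25. The quasi-likelihood test of edgeR, DESeq2 1.42.0 after rounding of counts, other filters, other scalings, quality weights, a replicate block, the compared groups alone and each library left out were alternatives, and the scripts were tested on simulated data. No 2 libraries of a group were duplicates, as chi-square per degree of freedom over 7405 genes was 7.59 to 72.6 in 24 pairs. At these depths the lowest member count was 129. Whether counting or the spread between libraries limits precision for members with few counts was not tested.

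The 37 genes and the other gene lists were chosen with earlier results of these data known. Genes named in the text are the called members with the smallest p (at most 8 per comparison), members whose libraries did not overlap, *Fga* with *Fgg*, and at most 6 called genes of each other list, and the rest of the members were added by role after their values were seen. Promoters came from the RefSeq table of GRCm38.p6, with 29 of 37 genes matched. Shared sequence is the percent of a gene's 31-base words found in another gene. Figures were drawn with matplotlib 3.10.9 in Python 3.11.15. A few genes and 1 sequence motif are not reported here.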

Additional observations from a re-analysis of the deposited data

Results flagged for a closer look

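In 10 of 152 groups of values (each gene or sum within a group of 4), 1 library lay far from the other 3, where chance alone gives about 7.6. In Chow/FGFR4 KD 4, *Fga* was at 7977 CPM (others 4636 to 5204), *C4b* at 1708 CPM (others 992 to 1091), *Serpinf2* at 595 CPM (others 524 to 530) and the sum of the 37 genes at 43879 CPM (others 29026 to 30662). In HFD/FGFR4 KD 1, *C8b* was at 237 CPM (others 81.7 to 101) and *Mbl1* at 168 CPM (others 106 to 116). *Masp1* was at 87.3 CPM in HFD/FGFR4 KD 4 (others 101 to 102), *Proc* at 314 CPM in Chow/FGFR4 KD 2 (others 269 to 276), *Mbl1* at 177 CPM in Chow 2 (others 154 to 155) and *Serpind1* at 400 CPM in Chow 3 (others 407 to 408).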

How the results depend on the processing

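With KD on HFD, 2 genes were called in the reported fit. The count was 0 by edgeR (2.17% of all genes), with library totals only (1.01%) and at an adjusted p below 0.05 (0.274%). It was 1 with only the groups compared (1.78%) and without both libraries that stood apart (1.81%), and 7 with library quality weights (6.85%). Leaving out single libraries gave 0 to 8, beside 0.784 to 5.33% of all genes. On HFD in saline mice 25 became 16 with library totals only (38% of all genes), and 13 of the 16 were among the 25. At an adjusted p below 0.05 the 25 became 15 (9.2%). On leaving out single libraries it was 21 to 25, beside 21.3 to 26.6% of all genes. On HFD under KD 16 became 5 at an adjusted p below 0.05 (3.1% of all genes). With single libraries left out it was 8 to 19, beside 10.5 to 22.3% of all genes. DESeq2 called 2 genes for the difference between KD effects (0.477% of all genes), where limma-voom called 0 (0.0353%). The log2 ratio of summed levels on HFD in saline mice went from -0.40 to -0.12 with library totals only, and in the same setting *Masp1* turned to 0.03, *Kng1* to 0.05, *Serpinc1* to 0.01 and *Serpind1* to 0.08. The causes were not tested.

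Replicate numbers did not pair the libraries. Over 24 same-numbered pairs the correlation of deviations was -0.29 to 0.24, 7 pairs exceeded 0.1, and 3 of 16 libraries matched their own number best. With a replicate block the count was 1 with KD on HFD, 25 on HFD in saline mice and 15 on HFD under KD. The shares of all genes called with that block were 2.29%, 26% and 20.3%. The 4 libraries per group limit all comparisons, and intervals for single genes are wide where libraries spread, as for *C8b*.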
